A study of Mus musculus with 12 samples.

Results

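Interferon-stimulated effector genes are the genes that a cell switches on when it senses an interferon, and 47 of them were followed here through 12 mouse tumors. They were taken by name from a list of antiviral effectors and interferon-inducible GTPases, by matching Ensembl gene identifiers of the count tables to mouse symbols. All 47 were found among the 52636 genes listed, and all 47 were among the 17970 genes with enough counts to be tested. By role they fall into 8 type I effectors of the Ifit, Mx and Isg families, 8 interferon-gamma GTPases of the Gbp and Irg families, 6 signalling and transcription genes, 8 ubiquitin and ADP-ribose enzymes and 17 other effectors.

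The tumors were 2153L, a genetically engineered mouse (GEM) tumor labelled as triple-negative breast cancer (TNBC), grown after transplant to the mammary fat pad. The hosts were female Balbc mice. An empty vector (EV) or one for P53ERTAM had been placed in the tumors, P53ERTAM being a fusion of p53 to a tamoxifen-responsive domain that makes p53 inducible. Mice were given vehicle or a combination, called combo below, for 8 days. The combo was ORIN1001, which blocks RNA cleavage by the stress sensor IRE1α, at 150 mg/kg each day, with docetaxel, a microtubule drug, at 20 mg/kg each week. Each of the 4 groups (EV vehicle, EV combo, P53ERTAM vehicle and P53ERTAM combo) held 3 tumors. The tumor line is common to all groups, so it counts as 1 model. Tamoxifen dosing is not given for any group, nor whether the replicates came from separate transplants, so the p-values measure the spread between these samples, which may be partly technical.

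Interferons act through cell-surface receptors and the kinases of the JAK family. Type I interferon signals through a complex that holds Stat2 and Irf9 and binds the interferon-stimulated response element (ISRE), whereas interferon-gamma acts first through the gamma-activated site (GAS). Irf1, itself a target, also binds ISRE-like sequences, so that many genes answer to both kinds of interferon. Ifit, Mx and Isg products act on viral RNA and proteins, and the Gbp and Irg GTPases gather on membranes around intracellular parasites and bacteria. In tumors the same genes are read as a sign of interferon signalling in cancer cells, in immune cells or in both.

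The promoters of the members hold both kinds of element, although those of some, such as Irf7, Lgals3bp and Helz2, held no match and are not shown. The stretches below were picked from those with a match upstream of the start site. They are the bases upstream of the start sites in RefSeq (build GRCm38.p6), read 5′ to 3′ on the strand of the gene, with the matches in capitals. The letters searched were GAAA, any 2 bases and GAAA again for the ISRE, on both strands (TTTC, any 2 bases and TTTC on the other), and TTCNNNGAA, which reads alike on both strands, for the GAS. Matches may overlap one another, so that a run of capitals can hold several.
Ifit1, chr19:34640760-34640838, plus strand: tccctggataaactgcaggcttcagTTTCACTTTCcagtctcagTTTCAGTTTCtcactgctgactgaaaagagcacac
Ifit3, chr19:34583348-34583441, plus strand: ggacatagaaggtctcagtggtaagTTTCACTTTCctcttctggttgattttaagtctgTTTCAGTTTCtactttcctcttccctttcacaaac
Ifit3b, chr19:34607744-34607837, plus strand: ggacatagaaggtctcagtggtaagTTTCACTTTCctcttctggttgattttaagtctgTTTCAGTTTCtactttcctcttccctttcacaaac
Isg15, chr4:156200850-156200921, minus strand: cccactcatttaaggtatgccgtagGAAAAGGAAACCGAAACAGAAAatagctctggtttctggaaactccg
Rsad2, chr12:26456538-26456597, minus strand: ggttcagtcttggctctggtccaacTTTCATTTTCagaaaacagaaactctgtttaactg
Stat2, chr10:128270251-128270310, plus strand: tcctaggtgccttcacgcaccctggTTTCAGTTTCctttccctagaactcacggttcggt
Gbp7, chr3:142530205-142530317, plus strand: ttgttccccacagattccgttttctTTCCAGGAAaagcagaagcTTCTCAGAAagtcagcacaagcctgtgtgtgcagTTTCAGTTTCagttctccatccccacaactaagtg
Igtp, chr11:58199486-58199555, plus strand: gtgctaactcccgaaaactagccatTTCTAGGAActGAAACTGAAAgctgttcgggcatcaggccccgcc
Bst2, chr8:71537562-71537633, minus strand: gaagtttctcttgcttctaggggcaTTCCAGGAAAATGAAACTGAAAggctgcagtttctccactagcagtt
Irf1, chr11:53769899-53769957, plus strand: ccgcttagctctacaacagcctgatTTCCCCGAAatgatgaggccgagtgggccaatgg
Ifit2, chr19:34550444-34550486, plus strand: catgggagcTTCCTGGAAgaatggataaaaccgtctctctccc

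The type I effectors Ifit1, Ifit3 and Isg15 and the antiviral enzyme gene Rsad2 hold ISRE cores and no GAS core. The stretches of Ifit3 and Ifit3b are identical over all 94 bases, and both genes carry the same pair of cores. The GTPase genes Gbp7 and Igtp hold a GAS beside the ISRE, and in Bst2, the gene of tetherin, the GAS runs into the ISRE cores. Irf1 and Ifit2 hold a GAS core and no ISRE core, and for both this is 1 of 2 listed start sites, the other having neither. A window of 250 bases before to 50 after the start was listed for 37 of the 47 members. An ISRE core was present in 16 of these 37 (43.2%), against 3.99% of the 27025 genes with a listed promoter. A GAS core was present in 8 of 37 (21.6%), against 9.55% of all genes. By family, 4 of 6 type I effectors and 5 of 6 GTPases with a listed promoter held an ISRE core, and 2 of 6 in each family held a GAS core. Gbp2, Gbp3 and Irgm1, whose stretches are not shown, hold an ISRE core and no GAS core. These are matches of letters only, and a promoter without one may hold other forms of the element.

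**Figure D1:**
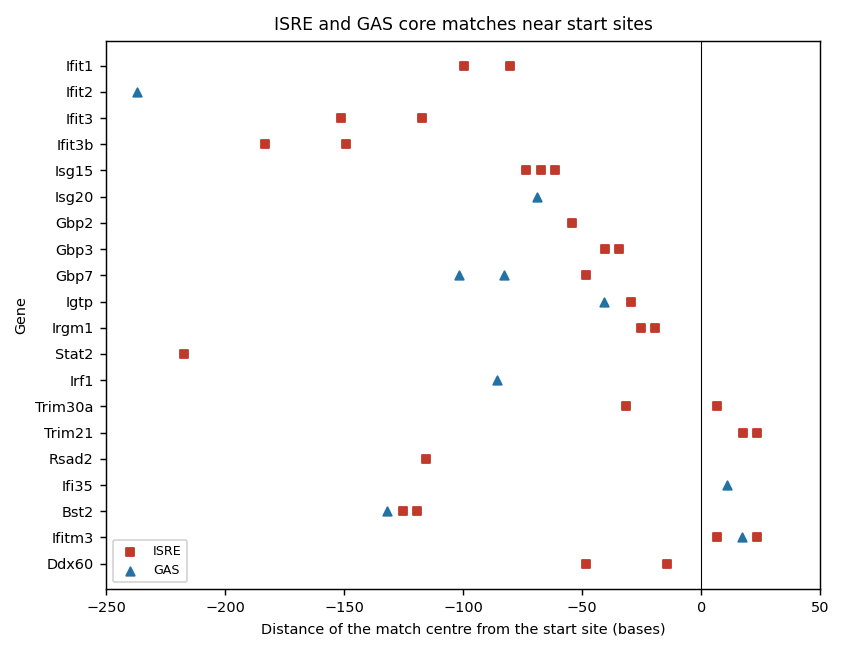
Positions of ISRE cores (red squares) and GAS cores (blue triangles) in the promoters of the members that hold at least 1. The horizontal axis is the distance of the centre of the match from the RefSeq start site in bases, with 0 at the start site, and each line is a gene; most ISRE cores lie within 200 bases upstream.

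Library totals ran from 13484873 to 24424964 counts, and the members took 0.122 to 0.347% of them. The EV combo libraries stood apart from the others: the noncoding gene Gm26917 took 10.7 to 11.1% of their counts against 0.133 to 1.10% elsewhere, and protein-coding genes took 80.9 to 81.7% against 86.7 to 95.8%. Results that rest on these libraries (the EV combo comparison, the 2 vectors under combo and the interaction) carry that difference, and its part in them was not tested. The vector labels could be checked by Esr1, whose reads can include the hormone-binding domain: it stood at 29.3 to 38.9 CPM, the TMM-scaled count relative to library size, in the P53ERTAM libraries and 5.31 to 12.4 CPM in the EV libraries. Cdkn1a, a p53 target, stood at 92.2 to 199.6 and 22.3 to 53.9 CPM. Of the 4 genes checked (Esr1, Cdkn1a, Trp53 and Mdm2), edgeR called 3 higher in P53ERTAM than in EV under vehicle and 4 under combo. The Trp53 levels of the vectors overlapped under vehicle. All 10 mammary epithelial markers examined had counts in every library.

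The P53ERTAM tumors under combo had the highest levels of most of these genes. Of the 47 members, 42 rose in P53ERTAM tumors given combo, whereas 0 fell (0 also at an unadjusted p under 0.05, all 47 values being above 0), where 3.3% of all genes tested rose and 2.98% fell (edgeR quasi-likelihood test, Benjamini-Hochberg adjusted p under 0.05). The median log2 fold change of the members was 1.39, against 0.005 over all genes tested. By size, 40 of the 47 were over 2-fold and 11 over 4-fold higher. The 5 that did not pass the test were Isg20, Mx2, Gbp6, Trim25 and Helz2. Members with an ISRE core rose in 16 of 16 cases, and those with a listed promoter but no ISRE core in 18 of 21. Those without a listed promoter rose in 8 of 10. The median log2 fold changes were 1.64, 1.32 and 1.76 in that order, and the part of the ISRE in the rise was not tested. For 46 members all 3 P53ERTAM combo libraries lay above all 3 P53ERTAM vehicle libraries, which held for 17.6% of all genes, and the exception was Isg20. For 32 members they lay above all 9 other libraries, against 6.91% of all genes.

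In EV tumors 6 of the 47 members passed the test for the same drugs, with 3 higher (Mx2, Herc6 and Helz2; 18.8% of all genes were higher) and 3 lower (Ifi27l2a, Bst2 and Ifitm3; 21.1% lower). The median log2 fold change of the members was -0.09, beside -0.07 over all genes. That the others missed the threshold does not show equal levels, because the EV vehicle tumors differed widely among themselves, as described below.

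**Figure D2:**
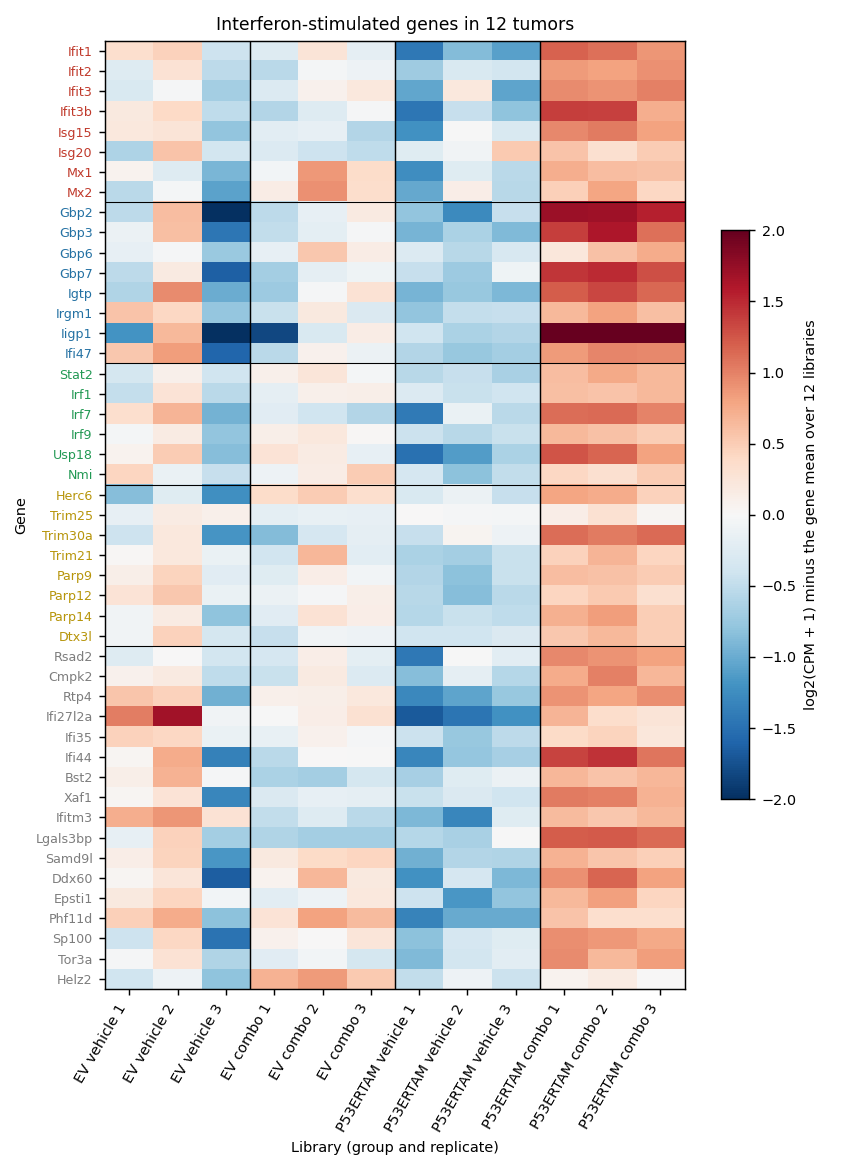
Level of each of the 47 members (rows) in each of the 12 libraries (columns), as log2(CPM + 1) minus the mean of the gene over the 12 libraries, with red above and blue below the mean and the scale ending at 2 in each direction. Rows are grouped by role from top to bottom, with the symbols coloured by group: type I effectors (red), interferon-gamma GTPases (blue), signalling and transcription (green), ubiquitin and ADP-ribose enzymes (yellow) and other effectors (grey). The last 3 columns, P53ERTAM combo, are red in nearly every row, and the third EV vehicle column is blue in most.

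The count in P53ERTAM tumors rested on few libraries. It was 14 without P53ERTAM vehicle replicate 1 and 16 without replicate 2, and 10, 26 and 18 without P53ERTAM combo replicates 1, 2 and 3, while the count over all genes fell from 593 to between 63 and 322 in these refits. The median log2 fold change of the members stayed between 1.26 and 1.502 in all 12 refits that left out 1 library, and 9 of the 42 calls (Ifit1, Ifit2, Stat2, Usp18, Parp9, Parp12, Rtp4, Lgals3bp and Epsti1) held in each. Without the 3 EV combo libraries, which enter this comparison through the filter, the scaling and the estimate of spread, 34 members rose.

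Among the type I effectors 6 of 8 rose with combo in P53ERTAM tumors. Ifit1, whose product binds the 5′ end of viral RNA, stood at 24.1, 26.5 and 13.9 CPM in EV vehicle and 15.6, 22.6 and 16.6 CPM in EV combo. P53ERTAM tumors held 6.39, 9.84 and 8.39 Ifit1 CPM under vehicle and 44.0, 41.5 and 35.6 CPM under combo. The vehicle group of P53ERTAM was thus the lowest of the 4 and the combo group the highest, and neither overlapped any other group. The rise was 4.94-fold (log2 fold change 2.30, SE 0.25, adjusted p = 0.00114), where the EV value was -0.24 (SE 0.23, adjusted p = 0.447).

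Ifit2, a partner of Ifit1 in RNA binding, also rose, from vehicle levels that overlapped between the vectors. It stood at 13.1, 19.7 and 10.7 CPM in EV vehicle, 10.7, 15.4 and 14.8 CPM in EV combo, 9.32, 12.7 and 12.1 CPM in P53ERTAM vehicle and 29.4, 28.6 and 31.0 CPM in P53ERTAM combo. Only the P53ERTAM combo libraries stood clear of the rest, with a rise of 2.61-fold (log2 fold change 1.39, SE 0.22, adjusted p = 0.00705). Ifit3b rose most of the 8, from 0.397, 1.76 and 1.17 CPM under vehicle to 8.94, 8.83 and 5.30 CPM under combo in P53ERTAM tumors. EV tumors held 3.35, 3.99 and 1.67 Ifit3b CPM under vehicle and 1.52, 2.17 and 2.73 CPM under combo, below every P53ERTAM combo library. The log2 fold change of Ifit3b was 2.83 (SE 0.49, adjusted p = 0.0111). Ifit3 and Ifit3b share transcript sequence, with 51.2% of the 50-base words of Ifit3 also found in Ifit3b, so their counts could include reads of each other. Ifit3 rose with combo in P53ERTAM tumors as well (log2 fold change 1.87, SE 0.45, adjusted p = 0.0319).

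Isg15, a ubiquitin-like protein that is attached to newly made proteins, was the most abundant type I effector per length in every group, at 87.7 ± 8.66 TPM, the level per transcript length (SD, n = 3), in P53ERTAM combo and 27.5 ± 10.1 TPM in P53ERTAM vehicle. Its libraries stood at 11.5, 11.8 and 5.21 CPM in EV vehicle, 8.31, 8.60 and 6.15 CPM in EV combo, 3.67, 9.69 and 7.69 CPM in P53ERTAM vehicle and 19.9, 21.2 and 17.8 CPM in P53ERTAM combo. The first 3 groups overlapped one another and the fourth lay above them. The rise was 2.82-fold (log2 fold change 1.49, SE 0.34, adjusted p = 0.027).

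Mx1 and Mx2, dynamin-like antiviral proteins that many inbred mouse strains carry in defective form, had combo effects closer to each other in the 2 vectors. Mx2 rose with combo in EV tumors (log2 fold change 1.17, SE 0.40, adjusted p = 0.0303) and had nearly the same value, short of the threshold, in P53ERTAM tumors (log2 fold change 1.16, SE 0.40, adjusted p = 0.0919). Mx1 rose in P53ERTAM tumors (log2 fold change 1.51, SE 0.38, adjusted p = 0.0357), with an EV value of 0.88 (adjusted p = 0.0756). For neither did the combo effect differ between the vectors by the test of the difference (adjusted p = 0.375 for Mx1 and 0.991 for Mx2). Isg20, an RNA exonuclease, was at 3.44 ± 1.28 CPM in P53ERTAM vehicle and 4.71 ± 0.497 CPM in P53ERTAM combo (SD, n = 3), and its value of 0.46 did not pass (adjusted p = 0.509).

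Of the interferon-gamma GTPases 7 of 8 rose with combo in P53ERTAM tumors, with a median log2 fold change of 2.21 over the 8, beside 1.501 for the type I effectors. Iigp1, an immunity-related GTPase that coats parasite vacuoles, stood at 26.9, 22.5 and 23.5 CPM in P53ERTAM vehicle and 161, 211 and 168 CPM in P53ERTAM combo. EV tumors held 15.04, 56.3 and 4.48 Iigp1 CPM under vehicle and 9.33, 28.7 and 39.4 CPM under combo, so that every P53ERTAM combo library lay above every other library. The rise was 7.39-fold (log2 fold change 2.89, SE 0.73, adjusted p = 0.0428), the largest of the 47, but its call held in only 4 of the 12 refits without 1 library. Per length it was the most abundant GTPase in P53ERTAM combo, at 195 ± 33.1 TPM, where Irgm1 led in the other 3 groups.

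Irgm1, which regulates the other Irg proteins, stood at 111, 99.3 and 42.9 CPM in EV vehicle, 54.1, 85.5 and 61.0 CPM in EV combo, 42.8, 53.4 and 53.6 CPM in P53ERTAM vehicle and 117, 130.3 and 113 CPM in P53ERTAM combo. Its first EV vehicle library came close to the P53ERTAM combo libraries, and the rise within P53ERTAM was the smallest of the GTPases, 2.41-fold (log2 fold change 1.27, SE 0.28, adjusted p = 0.0266). Ifi47, another Irg protein, stood at 32.9, 40.5 and 6.82 CPM in EV vehicle and 15.04, 23.8 and 20.6 CPM in EV combo. Ifi47 in P53ERTAM tumors stood at 14.6, 12.8 and 13.6 CPM under vehicle and 41.1, 45.2 and 44.5 CPM under combo. The second EV vehicle library nearly reached the P53ERTAM combo level, and the adjusted p of the rise (0.049) was close to the threshold (log2 fold change 1.67, SE 0.45); the call held in 3 of 12 refits.

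Gbp3, a guanylate-binding protein, stood at 24.4, 40.9 and 9.17 CPM in EV vehicle, 18.7, 23.0 and 26.2 CPM in EV combo, 13.4, 16.9 and 13.9 CPM in P53ERTAM vehicle and 71.3, 83.7 and 58.4 CPM in P53ERTAM combo. All P53ERTAM combo libraries lay above the rest, with a rise of 4.83-fold (log2 fold change 2.27, SE 0.39, adjusted p = 0.0124). Igtp, also known as Irgm3, stood at 10.2, 31.5 and 7.45 CPM in EV vehicle and 9.20, 15.5 and 19.6 CPM in EV combo. P53ERTAM tumors held 7.83, 9.03 and 8.10 Igtp CPM under vehicle and 38.3, 41.6 and 36.6 CPM under combo. The second EV vehicle library was the one nearest to the P53ERTAM combo tumors, and the rise was 4.67-fold (log2 fold change 2.22, SE 0.45, adjusted p = 0.0192). Gbp2 and Gbp7 rose by 2.62 and 1.85 on the log2 scale. Gbp6 was near the limit of detection, at 0 to 46 counts a library, and 70.7% of its 50-base words are shared with other genes, chiefly Gm43302, so its value of 2.20 (SE 0.79, adjusted p = 0.109) is uncertain. Igtp shares 11.8% of its words with Irgm2.

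All 6 signalling and transcription genes rose with combo in P53ERTAM tumors, with a median log2 fold change of 1.19. Stat2 and Irf9 act together in the type I complex. Stat2 stood at 36.6, 50.5 and 35.7 CPM in EV vehicle, 50.6, 56.2 and 45.6 CPM in EV combo, 31.7, 33.9 and 29.6 CPM in P53ERTAM vehicle and 72.9, 80.5 and 74.6 CPM in P53ERTAM combo. The P53ERTAM vehicle libraries were the 3 lowest and the P53ERTAM combo libraries the 3 highest of the 12. Stat2 rose 2.39-fold (log2 fold change 1.26, SE 0.14, adjusted p = 0.0014). Irf9 followed at 53.04, 48.4 and 52.2 CPM in P53ERTAM vehicle and 113, 108 and 101 CPM in P53ERTAM combo. EV tumors held 69.8, 80.6 and 40.9 Irf9 CPM under vehicle and 77.3, 83.0 and 72.4 CPM under combo, all below the P53ERTAM combo libraries, and the rise was 2.09-fold (log2 fold change 1.06, SE 0.18, adjusted p = 0.0111).

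Irf7, the transcription factor that amplifies type I interferon production, stood at 59.9, 76.2 and 24.0 CPM in EV vehicle, 40.2, 35.4 and 31.0 CPM in EV combo, 17.1, 42.7 and 32.1 CPM in P53ERTAM vehicle and 104, 105 and 94.3 CPM in P53ERTAM combo. The P53ERTAM combo libraries lay above the rest, and the rise was 3.31-fold (log2 fold change 1.73, SE 0.37, adjusted p = 0.0249). Irf1, which serves both interferon types, rose less, from 46.3, 41.4 and 42.7 CPM to 86.1, 84.1 and 89.0 CPM (log2 fold change 0.99, SE 0.18, adjusted p = 0.0137). EV tumors held 40.4, 68.9 and 38.5 Irf1 CPM under vehicle and 49.8, 60.8 and 61.3 CPM under combo, below every P53ERTAM combo library. Usp18, an enzyme that removes Isg15 and damps the type I receptor, had the largest rise of the 6. It stood at 18.1, 25.01 and 9.06 CPM in EV vehicle, 21.1, 19.4 and 15.3 CPM in EV combo, 5.45, 7.41 and 10.8 CPM in P53ERTAM vehicle and 42.5, 39.9 and 31.0 CPM in P53ERTAM combo. The P53ERTAM combo libraries lay above all others, and the rise was 4.80-fold (log2 fold change 2.26, SE 0.33, adjusted p = 0.00556). Nmi, which binds STAT proteins, rose by 1.12 on the log2 scale (adjusted p = 0.0408).

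Of the 8 ubiquitin and ADP-ribose enzymes 7 rose with combo in P53ERTAM tumors, with a median log2 fold change of 1.14. Parp9 and Dtx3l form one complex that joins ADP-ribose and ubiquitin transfer, and their genes lie head to head on chromosome 16 (Parp9 chr16:35938470-35972605, Dtx3l chr16:35926511-35939151, GRCm38), where they overlap. Whether the counting used strand is not given in the sources used here, so reads of the overlap could be counted for either. Parp9 stood at 45.2, 57.4 and 35.5 CPM in EV vehicle, 35.03, 45.7 and 40.1 CPM in EV combo, 27.4, 23.3 and 30.3 CPM in P53ERTAM vehicle and 64.6, 63.3 and 60.2 CPM in P53ERTAM combo. The P53ERTAM vehicle libraries were the lowest 3 and the P53ERTAM combo libraries the highest 3, with a rise of 2.32-fold (log2 fold change 1.21, SE 0.17, adjusted p = 0.00417). Dtx3l stood at 66.3, 95.7 and 54.5 CPM in EV vehicle, 50.4, 66.3 and 65.1 CPM in EV combo, 52.6, 52.3 and 56.5 CPM in P53ERTAM vehicle and 102, 109 and 98.1 CPM in P53ERTAM combo. Its second EV vehicle library came near the P53ERTAM combo libraries, and the rise was 1.91-fold (log2 fold change 0.94, SE 0.17, adjusted p = 0.0135).

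Parp12, a mono-ADP-ribosyl transferase, stood at 81.6, 98.5 and 61.4 CPM in EV vehicle, 62.2, 66.5 and 73.2 CPM in EV combo, 45.6, 36.9 and 45.9 CPM in P53ERTAM vehicle and 91.4, 97.0 and 84.2 CPM in P53ERTAM combo. Here the P53ERTAM combo libraries overlapped the EV vehicle libraries, and the P53ERTAM vehicle libraries were the lowest. Parp12 rose 2.12-fold within P53ERTAM (log2 fold change 1.09, SE 0.16, adjusted p = 0.00478). Trim25, the ubiquitin ligase that activates the RNA sensor RIG-I, was the most abundant of the 8 per length and moved least. It stood at 236, 296 and 282 CPM in EV vehicle, 231, 238 and 236 CPM in EV combo, 266, 259 and 258 CPM in P53ERTAM vehicle and 289.7, 326 and 271 CPM in P53ERTAM combo. The P53ERTAM combo libraries were the top 3 within their vector but overlapped EV vehicle, and the value of 0.18 did not pass the test (SE 0.10, adjusted p = 0.3). Herc6, the ligase that attaches Isg15 in mice, rose with combo in both vectors, by 1.23 in EV (SE 0.25, adjusted p = 0.00199) and 1.03 in P53ERTAM (SE 0.24, adjusted p = 0.0292) on the log2 scale. Parp14, Trim21 and Trim30a rose by 1.20, 1.22 and 1.31 in P53ERTAM tumors.

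Of the 17 other effectors 16 rose with combo in P53ERTAM tumors. Ifitm3, a membrane protein that blocks virus entry, was the most abundant member of all 47 per length in each group, at 936 ± 197 TPM in EV vehicle, 499.7 ± 51.8 TPM in EV combo, 347 ± 154 TPM in P53ERTAM vehicle and 978 ± 26.5 TPM in P53ERTAM combo (SD, n = 3). Its libraries stood at 213, 237 and 157 CPM in EV vehicle and 91.3, 107 and 88.1 CPM in EV combo. P53ERTAM tumors held 68.6, 51.6 and 108 Ifitm3 CPM under vehicle and 199.98, 187 and 203 CPM under combo. Ifitm3 was thus high in EV vehicle and in P53ERTAM combo and low in the other groups. It fell by 1.08 on the log2 scale in EV (SE 0.22, adjusted p = 0.00243) and rose by 1.37 in P53ERTAM (SE 0.22, adjusted p = 0.00871).

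Bst2, which tethers budding virus to the cell, had the same pattern. It stood at 30.3, 45.8 and 27.3 CPM in EV vehicle, 17.6, 16.98 and 21.6 CPM in EV combo, 17.2, 23.3 and 25.7 CPM in P53ERTAM vehicle and 44.5, 42.0 and 44.6 CPM in P53ERTAM combo. Bst2 fell by 0.88 in EV (SE 0.20, adjusted p = 0.00386) and rose by 0.99 in P53ERTAM (SE 0.20, adjusted p = 0.017). Ifi27l2a, a small membrane protein of the Ifi27 family, stood at 36.4, 57.7 and 16.6 CPM in EV vehicle, 17.3, 19.2 and 21.8 CPM in EV combo, 4.76, 5.65 and 6.94 CPM in P53ERTAM vehicle and 28.5, 22.5 and 20.9 CPM in P53ERTAM combo. The P53ERTAM vehicle libraries were far below the others, and P53ERTAM combo came back only to the range of the EV groups. Within P53ERTAM the rise was 4.15-fold (log2 fold change 2.05, SE 0.35, adjusted p = 0.0113), and within EV the level fell by 0.93 on the log2 scale (SE 0.33, adjusted p = 0.0404), a call that held in 2 of 12 refits without 1 library.

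Lgals3bp, a secreted glycoprotein that binds galectins, stood at 110.4, 171 and 76.9 CPM in EV vehicle, 81.5, 76.9 and 77.0 CPM in EV combo, 83.3, 78.4 and 123 CPM in P53ERTAM vehicle and 287, 291 and 274 CPM in P53ERTAM combo. The P53ERTAM combo libraries lay well above the others, which overlapped. Its rise was 2.99-fold (log2 fold change 1.58, SE 0.24, adjusted p = 0.00626). Rsad2, or viperin, and its neighbour Cmpk2 on chromosome 12, a nucleotide kinase, rose by 1.42 and 1.44 on the log2 scale. Ifi44 and Rtp4 rose further, by 2.24 and 2.01. The rises of the remaining effectors (Ifi35, Xaf1, Samd9l, Ddx60, Epsti1, Phf11d, Sp100 and Tor3a) ran from 0.95 for Ifi35 to 1.79 for Ddx60.

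Helz2, a helicase and coactivator of nuclear receptors, was highest in another group, EV combo. It stood at 112, 137 and 84.5 CPM in EV vehicle, 239, 268 and 214 CPM in EV combo, 105, 137 and 109.8 CPM in P53ERTAM vehicle and 155, 166 and 148 CPM in P53ERTAM combo. All EV combo libraries lay above all others. Helz2 rose 2.16-fold with combo in EV (log2 fold change 1.11, SE 0.16, adjusted p = 0.000345), where its value in P53ERTAM was 0.41 (SE 0.16, adjusted p = 0.13).

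**Figure D3:**
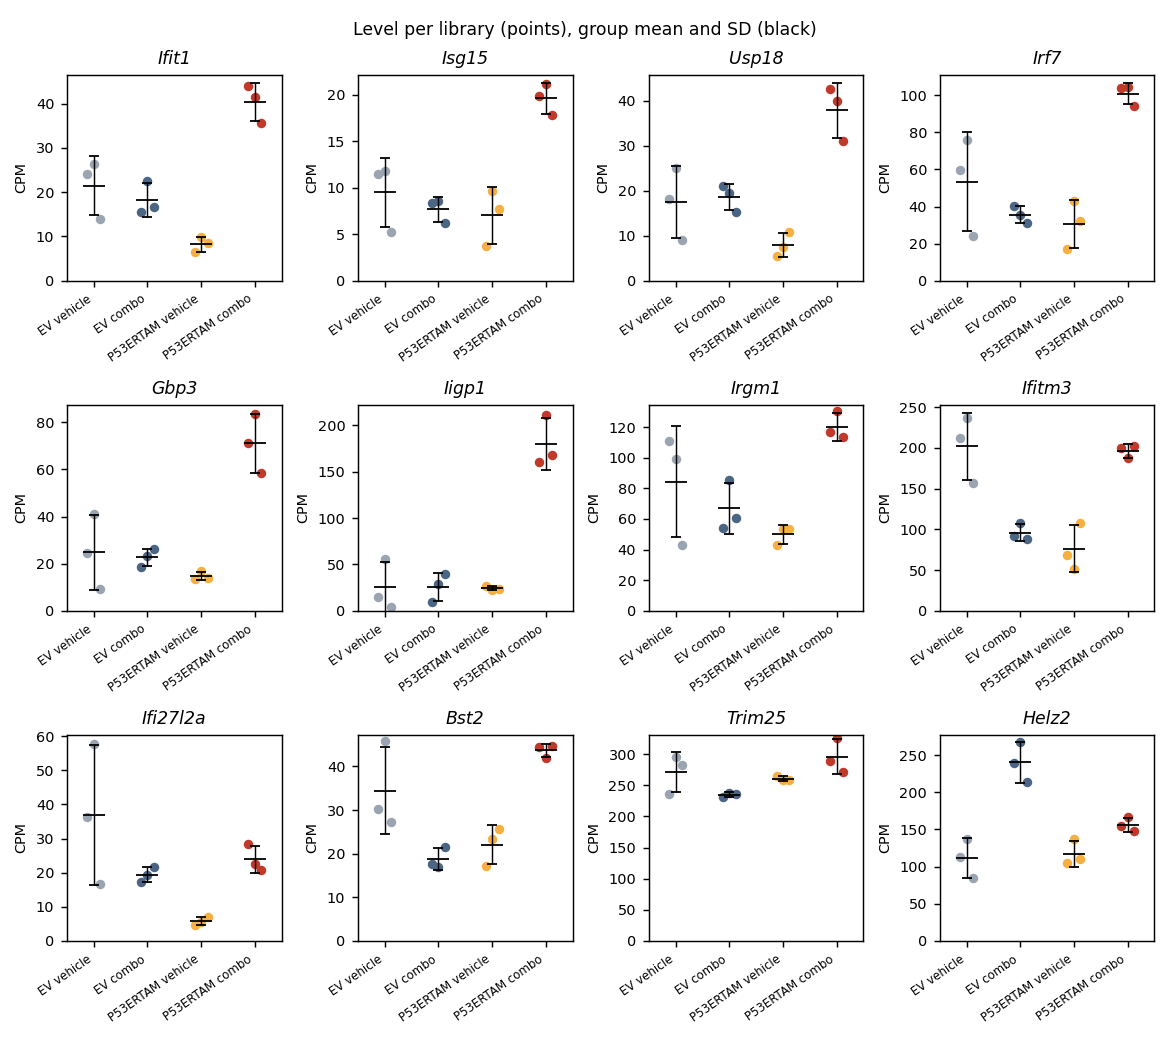
Level of 12 members in each library in CPM (vertical axis, from 0) by group (horizontal axis), with 1 point for each of the 3 tumors and the mean and SD in black. Ifit1, Isg15, Usp18, Irf7, Gbp3, Iigp1 and Irgm1 are highest in P53ERTAM combo; Ifitm3 and Bst2 are also high in EV vehicle; Helz2 is highest in EV combo.

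The EV vehicle tumors differed more among themselves in these genes than in others. The highest library was over the lowest by a median of 2.24-fold across the members, against 1.34-fold across 15125 genes with a mean of at least 1 CPM. Replicate 2 was the highest of the 3 for 42 of 47 members and replicate 3 the lowest for 45, and Iigp1 spanned 12.3-fold. The corresponding medians were 1.39-fold in EV combo, 1.496-fold in P53ERTAM vehicle and 1.15-fold in P53ERTAM combo. Replicate 2 of EV vehicle also held 199.2 CPM of B and plasma cell markers, where no other library passed 11.4 CPM, and 69.9 CPM of T cell markers, where no other passed 43.2 CPM. The part of these cells in the spread was not tested.

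The comparison within EV depended on these 2 tumors. Without EV vehicle replicate 2, 8 members were higher and 2 lower; without replicate 3, 2 were higher and 9 lower. The median log2 fold change of the members ran from -0.32 to 0.24 over the refits, so it has no settled sign. Herc6, Helz2, Bst2 and Ifitm3 were called in all 12 refits. In 3 members (Mx2, Herc6 and Helz2) all EV combo libraries lay above all EV vehicle libraries (23.6% of all genes), and in 2 (Bst2 and Ifitm3) they lay below (26.9%). In the same comparison 6 of 9 fibroblast and 3 of 7 endothelial markers were higher (18.8% of all genes). Lower were 3 of 10 T cell and 4 of 10 mammary epithelial markers (21.1% of all genes). The part of these markers in the values was not tested. Igtp, at -0.15 with all libraries, became 0.78 (adjusted p = 0.0360) without replicate 2.

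Under vehicle, of the 47 members 14 were lower in P53ERTAM than in EV tumors and 0 higher (0 also at an unadjusted p under 0.05, and with DESeq2 and voom), where 19.8% of all genes were lower and 17.9% higher, so the share of lower calls among members (14 of 47) was near that of all genes. Their median was -0.52 on the log2 scale, against 0.006 over all genes, and 41 of 47 values were negative. The lower genes were Ifit1, Ifit3b, Irgm1, Usp18, Trim21, Parp9, Parp12, Rtp4, Ifi27l2a, Ifi35, Bst2, Ifitm3, Epsti1 and Phf11d. Ifi27l2a differed most, at 6.39-fold lower (log2 fold change -2.68, SE 0.36, adjusted p = 0.000204), and Ifit1 and Ifitm3 were 2.63-fold and 2.66-fold lower (adjusted p = 0.000837 and 0.000533). Among the GTPases 1 of 8 was lower (Irgm1, log2 fold change -0.76, SE 0.28, adjusted p = 0.0498). For 11 members all P53ERTAM vehicle libraries lay below all EV vehicle libraries (24.1% of all genes). The count was 9 without EV vehicle replicate 2, 29 without EV vehicle replicate 3 and 9 without P53ERTAM vehicle replicate 1, and the median was -0.16 without EV vehicle replicate 2. In the same comparison 9 of 10 mammary epithelial markers were lower and 6 of 9 fibroblast and 5 of 7 endothelial markers higher, and the part of this shift in cell makeup was not tested. In bulk tumors fewer cells of a type and less RNA per cell cannot be told apart.

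Under combo the order of the vectors was the reverse. Of the 47 members 30 were higher in P53ERTAM than in EV and 1, Helz2, was lower, where 22.1% of all genes were higher and 22% lower. Their median was 0.85 on the log2 scale, against 0.06 over all genes. Iigp1 was 6.96-fold higher (log2 fold change 2.80, SE 0.72, adjusted p = 0.00979), Lgals3bp 3.62-fold (log2 fold change 1.85, SE 0.24, adjusted p = 9.64e-05) and Gbp7 3.34-fold (log2 fold change 1.74, SE 0.36, adjusted p = 0.00232). Gbp2 and Ifit3b lay beside Lgals3bp, at 3.71-fold and 3.58-fold (adjusted p = 0.0125 and 0.006). Helz2 was 1.54-fold lower (log2 fold change -0.62, SE 0.16, adjusted p = 0.00713). For 38 members the libraries of the vectors did not overlap with P53ERTAM higher (32.3% of all genes), and for Helz2 alone with P53ERTAM lower (29.4%). In the 12 refits 22 to 37 members were higher. In the same comparison 9 of 12 macrophage, 5 of 10 T cell, 2 of 6 NK, 2 of 6 dendritic, 2 of 5 neutrophil and 4 of 7 endothelial markers tested were higher. Of 10 mammary epithelial markers 1 was higher and 3 were lower, and of 3 erythroid markers 2 were lower. The part of all these markers in the values was not tested. This comparison shares its P53ERTAM combo libraries with the one within P53ERTAM and its EV combo libraries with the one within EV, so the results are not independent of each other.

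The P53ERTAM combo levels were also set beside those of EV vehicle, without a fitted contrast. In 38 members all P53ERTAM combo libraries lay above all EV vehicle libraries (24.2% of all genes) and in 0 below (26.2%). The other 9 (Isg20, Nmi, Trim25, Parp12, Ifi27l2a, Ifi35, Bst2, Ifitm3 and Phf11d) overlapped.

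The difference between the 2 combo effects was tested as the vector by treatment interaction. In 35 of 47 members the effect was higher in P53ERTAM than in EV and in 1, Helz2, it was lower, where 18.8% of all genes were higher and 17.2% lower. The median difference was 1.41 on the log2 scale, against 0.13 over all genes. The largest among the genes passing the test were those of Ifit3b (3.32, SE 0.67, adjusted p = 0.00258), Ifi27l2a (2.98, SE 0.48, adjusted p = 0.000983) and Iigp1 (2.86, SE 0.99, adjusted p = 0.0432). Ifit1 and Ifitm3 had the smallest adjusted p-values, at 0.000405 and 0.000392. The values of the 4 groups above show both ends of it: 41 members had a lower fitted level in P53ERTAM than in EV under vehicle, and 45 a higher one under combo. Among the 11 members not called, Mx2, Herc6, Trim25 and Mx1 had the effects of the vectors nearest to each other, with differences of -0.01, -0.20, 0.39 and 0.63. In the same test 9 of 12 macrophage, 5 of 10 T cell and 2 of 6 dendritic markers were higher, and 5 of 9 fibroblast and 3 of 3 erythroid markers lower. Of 10 mammary epithelial markers 5 were higher and 2 lower. The part of all these markers was not tested either. The count of higher members was 23 without EV combo replicate 1, and 23 of the 36 calls held in each of the 12 refits. The Helz2 call was lost in 5 of the 12 refits (without EV combo replicate 1 or 2, P53ERTAM vehicle replicate 2, or P53ERTAM combo replicate 1 or 3).

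**Figure D4:**
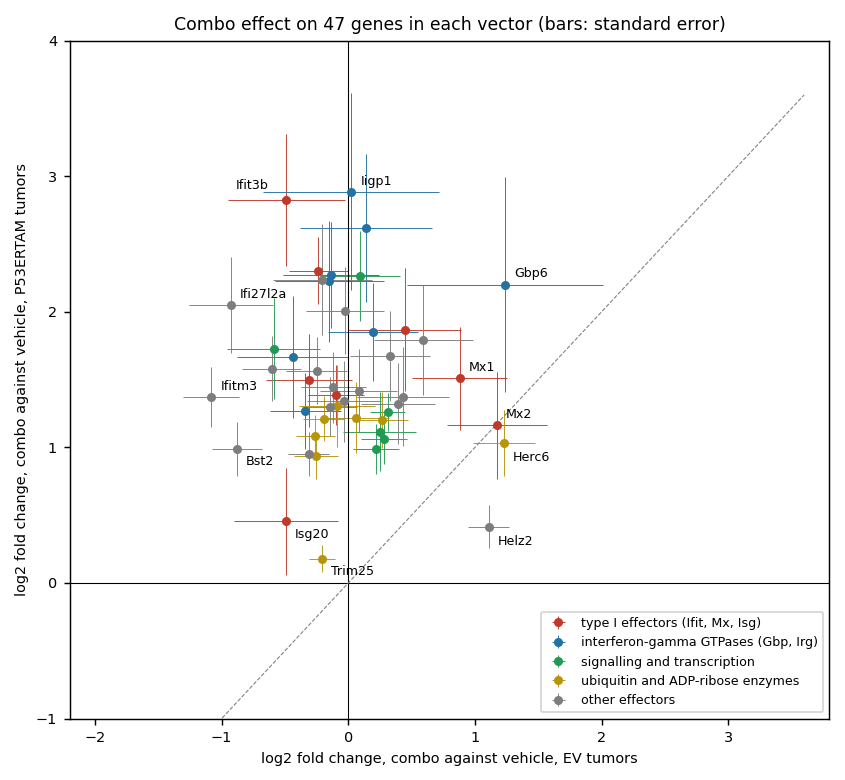
Combo effect on each of the 47 members in EV tumors (horizontal axis) and in P53ERTAM tumors (vertical axis), both as log2 fold change with bars of 1 standard error, coloured by role. The dashed line marks equal effects; nearly all points lie above it, with horizontal values around 0 and vertical values between 0.18 and 2.89, and Helz2, Herc6 and Mx2 lie on or under it.

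The type I effectors and the interferon-gamma GTPases were then set side by side. The median log2 fold changes of the 8 type I effectors and the 8 GTPases were -0.17 and -0.06 for combo in EV, 1.501 and 2.21 for combo in P53ERTAM, -0.38 and -0.67 for the vectors under vehicle, 1.14 and 1.52 for the vectors under combo, and 1.45 and 2.24 for the interaction. The GTPase median exceeded the type I median by 0.71 in P53ERTAM combo, and by 0.30 to 0.97 in the refits without 1 library, but by 0.065 with voom and quality weights. As an average per library on the log2(CPM + 1) scale, the GTPases stood above the type I effectors by 1.25, 1.70 and 0.55 in EV vehicle, 0.96, 1.22 and 1.47 in EV combo, 1.78, 0.86 and 1.36 in P53ERTAM vehicle and 1.70, 1.90 and 1.85 in P53ERTAM combo. These differences overlapped between groups, the first P53ERTAM vehicle library being above the first P53ERTAM combo library. Both families rose together, with 6 of 8 and 7 of 8 genes called in P53ERTAM combo, and the difference between the families was within the spread between libraries.

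**Figure D5:**
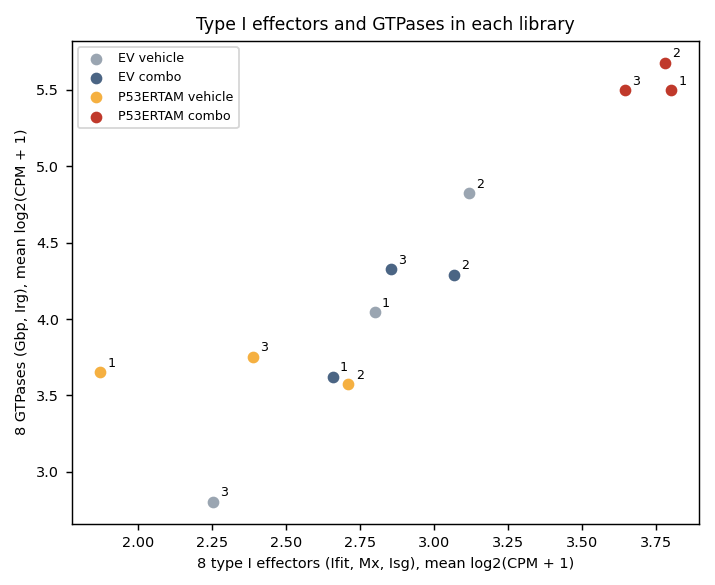
Mean level of the 8 type I effectors (horizontal axis) and of the 8 interferon-gamma GTPases (vertical axis) in each library, both as mean log2(CPM + 1), with points coloured by group and numbered by replicate. The 3 P53ERTAM combo libraries stand together at the upper right, and the EV vehicle libraries spread from the lowest GTPase value (replicate 3) to the highest outside P53ERTAM combo (replicate 2).

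Interferon transcripts themselves were at the limit of detection. None of the 14 ligand genes examined passed the filter on low counts. Ifng had 24 counts over the 12 libraries and Ifnb1 12, and 9 ligand genes, among them 7 of the Ifna family, had no count in any library, where a count of 0 allows up to 3 counts. The number is too small to compare groups. Of 6 receptor genes 1 rose with combo in P53ERTAM tumors, Ifngr1 (log2 fold change 0.78, SE 0.15, adjusted p = 0.0144), a subunit of the interferon-gamma receptor. Ifngr1 stood at 40.5, 32.1 and 49.4 CPM under vehicle and 74.4, 63.9 and 72.0 CPM under combo there. Its EV vehicle libraries overlapped the P53ERTAM combo libraries and lay above all P53ERTAM vehicle libraries. Ifnar1 and Ifnar2, the type I receptor subunits, had values of 0.03 and 0.22 (adjusted p = 0.923 and 0.632).

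Between the receptors and the members in the pathway stand the kinases Jak1 and Jak2 and transcription factors such as Irf5. Of the 9 such genes described here, 3 rose and 6 did not pass the test. Jak1 and Jak2 rose by 0.48 and 0.49 and Irf5 by 0.98 on the log2 scale with combo in P53ERTAM tumors (adjusted p = 0.0442, 0.0322 and 0.0264). In CPM, the P53ERTAM combo libraries overlapped the EV vehicle libraries for Jak1 and lay below all of them for Jak2. For Irf5 they lay above all EV vehicle libraries. Of 9 brakes on the pathway 2 rose, Usp18 and the phosphatase gene Ptpn6, by 2.26 and 0.97. The inhibitors Socs1 and Socs3 had values of 0.77 and -0.26 (adjusted p = 0.13 and 0.529). In the Isg15 conjugation list, which shares genes with the members, 5 of 6 rose; of its genes outside the members the activating enzyme Uba7 rose in both vectors (1.19 in EV and 1.11 in P53ERTAM), and the conjugating enzyme Ube2l6 rose in P53ERTAM (0.84).

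Other GTPases of these families were taken from a list outside the members. Of 13 listed 11 could be tested, and 6 rose with combo in P53ERTAM (Gbp2b, Gbp5, Gbp9, Irgm2, Tgtp1 and Gm4951), with a median log2 fold change of 2.24 over the 11 and every value above 0; 0 of 11 changed in EV by edgeR, and 0 had an unadjusted p under 0.05. Gbp5, an activator of inflammasomes, rose 5.70-fold (log2 fold change 2.51, SE 0.34, adjusted p = 0.00417). Of 11 tested interferon-gamma targets of other kinds 6 rose in P53ERTAM: the chemokines Cxcl10 and Cxcl11, the antigen-processing genes Psmb8, Psmb9 and Tap1, and Wars. Of these 6, only Cxcl10 had all P53ERTAM combo libraries above all EV vehicle libraries in CPM, and the others overlapped. Cxcl11 rose 8.20-fold there (log2 fold change 3.04, SE 0.44, adjusted p = 0.0051) and fell by 1.25 on the log2 scale in EV (adjusted p = 0.0307). Cxcl9 stood at 11.1, 7.93 and 8.74 CPM in P53ERTAM vehicle and 73.6, 83.4 and 55.4 CPM in P53ERTAM combo, but its second EV vehicle library held 75.2 CPM, and the value of 2.93 had an adjusted p of 0.0812.

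Macrophage markers were higher in the P53ERTAM combo tumors as well. The summed level of 12 macrophage and monocyte markers was 1540.4 to 2218 CPM in P53ERTAM combo, against 509 to 923 CPM in the other 9 libraries, and 8 of the 12 rose with combo in P53ERTAM. Dendritic cell markers summed to 99.3 to 104 CPM there, against 28.8 to 53.04 CPM elsewhere, with 1 of 6 tested called. Most of this sum was Itgax, with 5710 counts in P53ERTAM combo. Zbtb46 had 1179, Xcr1 172, Ccr7 122, Flt3 108, Clec9a 97 and Cd209a 25. NK and cytotoxic markers summed to 13.2 to 20.6 CPM, against 1.25 to 8.29 CPM elsewhere, and T cell markers to 36.2 to 43.2 CPM, against 7.11 to 22.5 CPM in all other libraries but EV vehicle replicate 2; 0 of 6 and 0 of 10 were called by edgeR, and 4 and 3 had an unadjusted p under 0.05. B and plasma cell markers summed to 6.41 to 11.4 CPM. Neutrophil markers overlapped between groups, at 59.1 to 62.4 CPM in P53ERTAM combo and 42.5 to 70.5 CPM in P53ERTAM vehicle, with 0 of 5 called by edgeR and 0 at an unadjusted p under 0.05. Plasmacytoid dendritic cell markers overlapped too, at 224 to 241 CPM and 219 to 235 CPM. The 1 of 6 called higher was Bst2, which is itself one of the members. Most of this sum was Tcf4, with 13603 counts in P53ERTAM combo, beside 3211 for Bst2, 120 for Siglech, 69 for Ccr9, 53 for Pacsin1 and 16 for Ly6d. The overlap of the sums is therefore mainly that of Tcf4. All 3 erythroid markers tested were lower with combo in P53ERTAM. Of 10 mammary epithelial markers 2 were lower there and 0 higher by edgeR, with 2 higher at an unadjusted p under 0.05. No macrophage or dendritic marker was at 0 in all libraries of a group. How much of the rise of the members came from these cells was not tested, and more such cells and more RNA per cell cannot be told apart here.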

How the data were processed

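RNA of 12 tumors was sequenced from Illumina Stranded Total RNA libraries with Ribo-Zero depletion, per the labels' protocols. The deposited values are raw counts per gene, with gene lengths. The submitters' processing notes name the build GRCm38.p5 and, as tools, featureCounts, STAR, fastp and FastQC; the annotation release and strand setting are not given in the sources used here. The members and lists were chosen with earlier results of these data known. Counts were fitted with edgeR 4.0.16 (R 4.3.3; filterByExpr, TMM scaling, robust quasi-likelihood) as 1 model of 4 group means, with 5 contrasts and Benjamini-Hochberg adjustment over 17970 genes at 0.05. The filter kept at least 99.8% of counts, and TMM factors were 0.941 to 1.05. CPM are TMM-scaled and TPM use the deposited lengths; the standard error is the log2 fold change over the root of F. A count of 0 allows up to 3 counts, for counting error only.

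Values in all libraries were given for the 3 members of each role with the highest mean TPM and the 3 with the smallest interaction p, and for members called against the direction of most; others were summarised. Alternatives were DESeq2 1.42.0 size factors and Wald test, limma 3.58.1 voom with quality weights, no filter, protein-coding genes only, only the groups compared, the replicate block, and leaving out each library. Coordinates are from GENCODE M21 and promoters from RefSeq. Ligand transcripts were not tested because of low counts, and 1 further pathway gene is not reported here.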

Additional observations from a re-analysis of the deposited data

Results flagged for a closer look

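The combo effect differed between the vectors for 36 members by edgeR's test of the difference (Benjamini-Hochberg adjusted p under 0.05), and each value is the log2 fold change in P53ERTAM minus that in EV. Among the type I effectors the difference was 2.54 for Ifit1, 1.48 for Ifit2, 3.32 for Ifit3b and 1.80 for Isg15. Among the interferon-gamma GTPases the difference was 2.48 for Gbp2, 2.41 for Gbp3, 1.66 for Gbp7, 2.37 for Igtp, 1.61 for Irgm1, 2.86 for Iigp1 and 2.11 for Ifi47. Among the signalling and transcription genes the difference was 0.95 for Stat2, 0.77 for Irf1, 2.32 for Irf7, 0.78 for Irf9 and 2.17 for Usp18. Among the ubiquitin and ADP-ribose enzymes the difference was 1.39 for Trim30a, 1.16 for Trim21, 1.41 for Parp9, 1.34 for Parp12, 0.94 for Parp14 and 1.19 for Dtx3l. Among the other effectors the difference was 1.34 for Rsad2, 1.56 for Cmpk2, 2.04 for Rtp4, 2.98 for Ifi27l2a, 1.26 for Ifi35, 2.44 for Ifi44, 1.87 for Bst2, 1.37 for Xaf1, 2.45 for Ifitm3, 2.19 for Lgals3bp, 1.82 for Epsti1, 1.35 for Phf11d and 1.45 for Tor3a. Helz2 alone had a negative difference, -0.69. All of these rest on the EV combo libraries, which stood apart in the share of Gm26917, and the part of that in the differences was not tested.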

How the results depend on the processing

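Calls for single members depended on single libraries, since each group held 3 tumors, while no called value of a member changed sign when 1 library was left out. Leaving out 1 library at a time gave these ranges. For combo in EV, 2 to 8 members were higher and 2 to 9 lower, the median log2 fold change was -0.32 to 0.24, and the GTPase median exceeded the type I median by -0.12 to 0.57; Igtp, not called with all libraries, ran from -0.47 to 0.78, past the threshold and opposite in sign without EV vehicle replicate 2 (0.78). For combo in P53ERTAM, 10 to 43 members were higher and the family difference was 0.30 to 0.97. For the vectors under vehicle, 0 to 1 members were higher (1 without EV vehicle replicate 2) and 9 to 29 lower, the median was -0.76 to -0.16 and the family difference -0.52 to 0.27. For the interaction, 23 to 39 members were higher and 0 to 1 lower, and the family difference was 0.29 to 1.01. With voom and quality weights 5 members were lower in EV, 22 were lower under vehicle, the interaction median was 1.74, and the family differences were 0.065 (P53ERTAM), 0.25 (vehicle) and 0.36 (interaction). The DESeq2 Wald test called 5 members higher in EV. The causes were not tested.

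Same-numbered samples of different groups were treated as unpaired, and whether they were paired is not given in the sources used here. Of the 18 correlations of their deviations 2 were over 0.1, and 2 of 12 libraries correlated best with their own number. The largest of the 18 was 0.357, above the 0.232 reached between samples of different number. With 3 samples a group, such correlations cannot show whether a pairing existed. With the replicate number as a block, 40 members were higher with combo in P53ERTAM, 4 were higher and 2 lower in EV, 14 were lower under vehicle, 31 were higher and 1 lower under combo, and 34 were higher and 1 lower in the interaction. Of the values for single members, 4042 kept their side of the threshold, 352 no longer passed and 111 newly passed. Leaving out the EV combo libraries was chosen after seeing the data. Mx2 had no value among protein-coding genes only, Gbp6 none under vehicle with only the groups compared, and the interaction no such alternative.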
